A study of Mus musculus with 10 samples.

Results

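The genes described here encode Golgi glycosyltransferases, the enzymes that build sugar chains on proteins and lipids as they pass through the secretory pathway. They were taken by name: every symbol in the expression table that begins with St3gal, St6gal, St8sia, B3gnt, B3galt, B4galt, B4galnt, Galnt, Gcnt, Fut, Mgat or C1galt followed directly by its member number. This gave 82 of the 23969 symbols, of which 80 are genes of the families, 1 is a pseudogene (Fut4-ps1) and 1 is an RNA from the opposite strand of a member (St8sia3os). Transcripts had been measured by bulk RNA sequencing in sorted GFP-positive cells of the proximal jejunum from Lgr5-eGFP-IRES-CreER mice, in which GFP is made from the locus of Lgr5, an R-spondin receptor of the crypt base stem cells. All mice of the groups carried that allele, and each had been injected intravenously with an adenovirus before the harvest. The virus of the Rspo1 group (3 libraries) carried Rspo1 and is labelled Rspo GOF (gain of function). The virus of the LGR5-ECD group (3 libraries) carried the extracellular domain of LGR5 and is labelled Rspo LOF (loss of function). The virus of the control group (2 libraries) carried Fc. Neither dose, time after injection nor age of the mice is stated. The 2 control columns are named WT, with neither sort nor sample, and were taken to be the GFP-positive Fc samples because the series describes 2 Fc replicates; all values of the control depend on this. The series calls the samples biological replicates, and nothing in the labels says how many mice stood behind a library.

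Sugar chains of the gut epithelium fall into a few families. N-glycans are attached to asparagine and are branched by the Mgat enzymes. Mucin-type O-glycans begin with a GalNAc that the Galnt enzymes put on serine or threonine, and C1galt1 and the Gcnt enzymes then build and branch their core. Both kinds are lengthened by B3gnt and B4galt enzymes and capped with sialic acid by the St3gal, St6gal and St8sia enzymes or with fucose by the Fut enzymes. Such caps are best known in the intestine as parts of mucus and of the cell surface coat that microbes and lectins bind.

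Levels are in FPKM, fragments per length of transcript and per mapped fragments of a library, and read totals were unknown. LGR5-ECD replicate 3 stood apart in detection, with 11485 symbols above 0, against 13417 to 14197 in the other 7 libraries. Of the 82 members, 48 reached 1 FPKM in at least 2 libraries and were tested. Another 17 were listed at 0 in all 8 libraries, and 17 had values that did not pass. Changes are differences of log2(FPKM + 1), which understate the change of low genes, and adjusted p-values are from limma with Benjamini-Hochberg adjustment over the 11454 genes tested, with a threshold of 0.05.

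The labelled cell state was checked on marker genes. Lgr5 stood at 96.4, 113 and 100.2 FPKM in Rspo1, 8.31, 2.84 and 4.28 in LGR5-ECD and 40.6 and 22 in the control (log2 change of 4.18, SE 0.32, adjusted p = 0.000113, Rspo1 against LGR5-ECD). Krt20, a keratin of differentiated enterocytes, stood at 4.53, 3.97 and 4.58 FPKM in Rspo1, 40.9, 37.1 and 36.6 in LGR5-ECD and 13.6 and 16.4 in the control (log2 change of -2.87, SE 0.18, adjusted p = 5.85e-05). The sum of 8 crypt base stem cell markers was 1825 to 1985 FPKM in Rspo1, 121 to 413 in LGR5-ECD and 485 to 1100.0 in the control, and all 8 were higher in Rspo1 than in LGR5-ECD. The summed FPKM of 12 enterocyte markers was 462 to 539 in Rspo1, 1312 to 1542 in LGR5-ECD and 694 to 764 in the control, 11 of the 12 were lower in Rspo1 than in LGR5-ECD by the same test, and none was listed at 0 in every library. The sum of 9 goblet cell markers was 740.0, 404 and 291 in Rspo1, 807, 2215 and 2596 in LGR5-ECD and 312 and 934 in the control, 4 of the 9 were lower in Rspo1 than in LGR5-ECD, and none was at 0 in every library. The sum of 8 Paneth cell markers was 1273 to 2194 in Rspo1, 1390.0 to 3712 in LGR5-ECD and 16.4 to 413 in the control, and 6 of the 8 were higher in Rspo1 and 5 in LGR5-ECD than in the control. The sum of 7 interferon response genes was 21.2 to 35.3 in Rspo1, 108 to 165 in LGR5-ECD and 198 to 201 in the control, 6 of the 7 being lower in Rspo1 than in either other group. For 7 immune markers the sum was at most 16.7 FPKM in any library, and for 7 mesenchymal, endothelial and red cell markers, of which Col1a1 and Cdh5 were listed at 0 throughout, it was at most 2.51 FPKM. Tuft and enteroendocrine markers summed to at most 135.2 and 51.1 FPKM. In bulk samples, more cells of one type and more RNA per cell cannot be told apart.

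Across the members, the highest levels belonged to enzymes of chain extension and capping other than sialic acid or fucose. B4galnt1, which makes the gangliosides GM2 and GD2, had 293, 278 and 302 FPKM in Rspo1, 429, 504 and 368 in LGR5-ECD and 386 and 338 in the control. B4galnt2, the enzyme of the Sd(a) carbohydrate antigen, ranged from 145 to 184 FPKM over all 8 libraries, the smallest relative spread of the 44 tested members with no value of 0. B3gnt3, which extends core 1 O-glycans, was the third with 74 ± 2.12 FPKM in Rspo1, 93.3 ± 2.94 in LGR5-ECD and 65 ± 6.7 in the control (SD, n = 3, 3 and 2). The members together made up 0.349% to 0.408% of all FPKM in Rspo1, 0.4997% to 0.511% in LGR5-ECD and 0.464% to 0.469% in the control, and these ranges did not overlap. High genes weigh most in this share, such as B4galnt1 with means of 291 FPKM in Rspo1 and 434 in LGR5-ECD. The median log2 change of the 48 tested members, Rspo1 against LGR5-ECD, was -0.08, so the share does not describe a typical member.

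**Figure D1:**
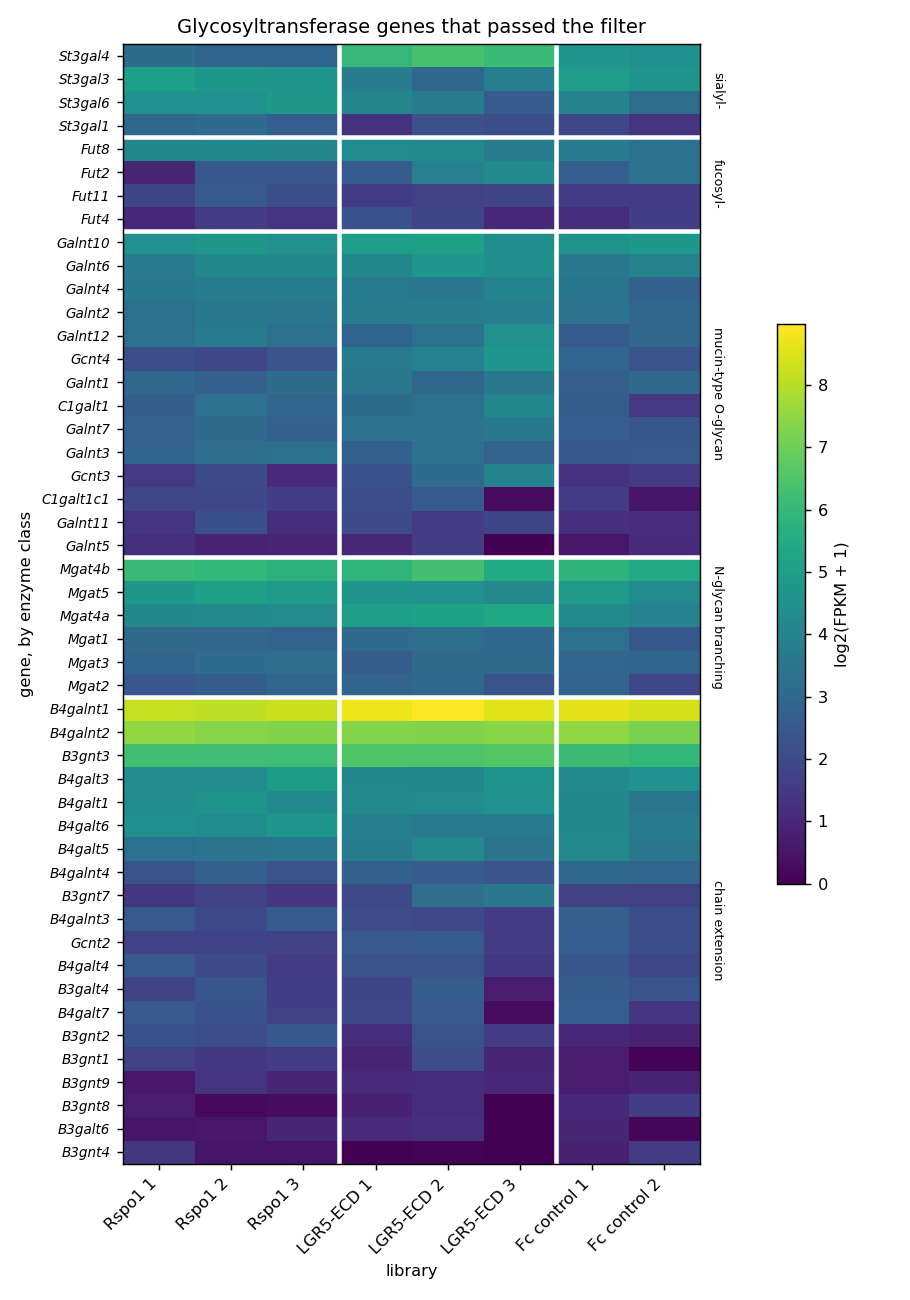
The colour gives the level, log2(FPKM + 1), of each of the 48 tested members (rows, grouped by enzyme class and ordered by mean level) in each library (columns, 3 Rspo1, 3 LGR5-ECD and 2 Fc control). B4galnt1, B4galnt2 and B3gnt3 are high in all 8 libraries, and St3gal4 is high in the LGR5-ECD libraries and low in the Rspo1 libraries.

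Between Rspo1 and LGR5-ECD the groups did not overlap for any of the 4 tested sialyltransferases, where 31% of all genes tested did not overlap. The 2 sialyltransferases that were called moved in opposite directions. St3gal4 adds sialic acid in alpha-2,3 linkage to the terminal galactose of N-acetyllactosamine chains. It had 8.08, 6.42 and 6.46 FPKM in Rspo1, 62.1, 82.3 and 69.4 in LGR5-ECD and 24.8 and 21.6 in the control. The 3 groups did not overlap, and the control lay between the others. Its mean was 10.2 times lower in Rspo1 than in LGR5-ECD (log2 change of -3.18, SE 0.19, adjusted p = 5.85e-05). It was also lower in Rspo1 than in the control (log2 change of -1.60, SE 0.21, adjusted p = 0.00717) and higher in LGR5-ECD than in the control (log2 change of 1.57, SE 0.21, adjusted p = 0.0193). The call against LGR5-ECD held without each library in turn. The call in Rspo1 against the control was lost without Rspo1 replicate 2 (adjusted p = 0.0512), and that in LGR5-ECD against the control without LGR5-ECD replicate 2 or control 2 (adjusted p = 0.0647 and 0.073), and also with no filter on low values or in a fit on those groups alone (adjusted p = 0.067 and 0.0845). The enterocyte marker sums had the same order of groups, and their part in the result was not tested. St3gal3 acts on similar acceptor chains and had 32.9, 26.7 and 25 FPKM in Rspo1, 12.6, 7.08 and 13.4 in LGR5-ECD and 30.2 and 23.9 in the control. All 3 LGR5-ECD libraries were low, while the Rspo1 and control values overlapped. The stem cell marker sums were also lowest in LGR5-ECD, and their part was not tested. St3gal3 was higher in Rspo1 than in LGR5-ECD (log2 change of 1.32, SE 0.25, adjusted p = 0.00928), and its difference between LGR5-ECD and the control did not pass (log2 change of -1.26, SE 0.28, adjusted p = 0.0731).

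St3gal6, a further enzyme of this linkage on N-acetyllactosamine, had 22.1, 22.6 and 26.5 FPKM in Rspo1, 16.1, 12.9 and 5.15 in LGR5-ECD and 15 and 8.27 in the control. St3gal1, which caps the core 1 O-glycan, had 6.72, 7.83 and 5.38 FPKM in Rspo1, 1.49, 3.68 and 3.49 in LGR5-ECD and 2.78 and 1.56 in the control. For both, every Rspo1 library lay above every other library. Neither passed the threshold in Rspo1 against LGR5-ECD (adjusted p = 0.0834 for St3gal6 and 0.0702 for St3gal1) or in Rspo1 against the control (adjusted p = 0.234 and 0.0972), though St3gal6 was called against LGR5-ECD without LGR5-ECD replicate 1. Within the summed FPKM of these 4 genes, St3gal4 took 11.6%, 10.1% and 10.2% in the Rspo1 libraries, 67.3%, 77.7% and 75.9% in the LGR5-ECD libraries and 34% and 39% in the control libraries. St3gal3 took 47.2%, 42.1% and 39.4% in Rspo1, 13.7%, 6.68% and 14.6% in LGR5-ECD and 41.5% and 43.2% in the control. The leading transcript of the family was thus St3gal4 in every LGR5-ECD library, and St3gal3 in Rspo1 replicates 1 and 2 and both control libraries, with St3gal6 ahead in Rspo1 replicate 3.

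**Figure D2:**
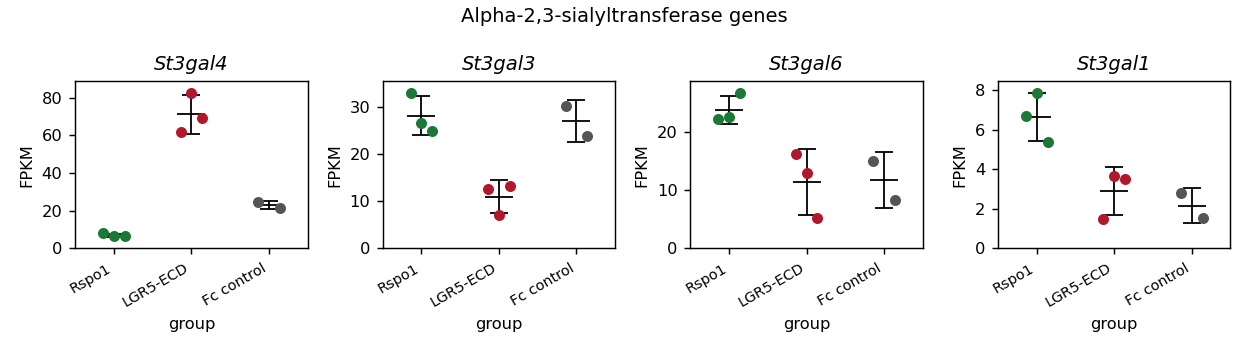
Points are the FPKM of St3gal4, St3gal3, St3gal6 and St3gal1 in single libraries, by group (3 Rspo1, 3 LGR5-ECD, 2 Fc control), with the mean and SD as bars. St3gal4 lies between 6.42 and 8.08 FPKM in Rspo1 and between 62.1 and 82.3 FPKM in LGR5-ECD, and the other 3 genes are higher in each Rspo1 library than in each LGR5-ECD library.

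The remaining 11 of the 15 sialyltransferase symbols were not tested. St3gal5, the GM3 synthase, St6gal2, St8sia2, St8sia4, St8sia5, St8sia6 and St8sia3os were listed at 0 in all 8 libraries. St6gal1, which makes the alpha-2,6 linkage on N-glycans, had 0.447, 0.308 and 0.382 FPKM in Rspo1, 0, 0.109 and 0 in LGR5-ECD and 0.526 and 0.0182 in the control. St3gal2 did not exceed 0.571 FPKM, St8sia3 0.188 FPKM and St8sia1 0.0801 FPKM. St3gal1, St3gal3, St3gal4 and St3gal6 were thus the sialyltransferases of these families that reached 1 FPKM.

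The DNA before the start of St3gal4, of St3gal3 and of Mgat4a, the N-glycan member with the smallest p, is shown because these genes changed in different directions. Each sequence is the 250 bases upstream of the RefSeq start on the gene's strand (build GRCm38.p6; the authors used mm9), from chr9:35116865-35117114 (minus strand), chr4:118134947-118135196 (minus strand) and chr1:37541017-37541266 (minus strand, the upstream one of 2 listed starts), with CpG dinucleotides in capitals.
St3gal4: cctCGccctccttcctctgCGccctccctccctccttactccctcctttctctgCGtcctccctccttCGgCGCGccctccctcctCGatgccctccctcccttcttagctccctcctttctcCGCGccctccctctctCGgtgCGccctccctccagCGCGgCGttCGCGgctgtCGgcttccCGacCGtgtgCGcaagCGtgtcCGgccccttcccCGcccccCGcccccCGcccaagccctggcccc
St3gal3: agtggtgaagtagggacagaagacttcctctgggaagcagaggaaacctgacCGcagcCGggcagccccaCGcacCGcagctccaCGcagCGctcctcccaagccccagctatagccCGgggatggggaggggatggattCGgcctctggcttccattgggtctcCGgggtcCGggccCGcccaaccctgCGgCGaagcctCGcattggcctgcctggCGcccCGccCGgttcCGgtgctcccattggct
Mgat4a: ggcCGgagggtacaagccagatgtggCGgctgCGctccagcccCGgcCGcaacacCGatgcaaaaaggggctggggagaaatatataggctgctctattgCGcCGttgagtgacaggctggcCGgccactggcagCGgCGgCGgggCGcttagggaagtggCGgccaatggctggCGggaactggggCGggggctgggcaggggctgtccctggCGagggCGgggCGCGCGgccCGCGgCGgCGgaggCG
These windows held 25, 18 and 26 CpG at 72.8%, 68.4% and 72.4% GC in that order, against medians of 6 CpG and 52.4% GC over the 32851 RefSeq windows. The TCF/LEF core TCAAAG, searched on both strands, was in none of the 3 and in 13.8% of all windows. Of 85 windows of 59 members that matched, 14.1% held it. The HNF4 motif CAAAGTCCA, which can overlap the TCF/LEF core, was in 1 of the 85 members' windows (1.18%) and in 0.384% of all. The CDX motif TTTATGG was likewise in 1 of the 85 (1.18%) and in 2.43% of all. With 1 window each, these shares cannot be told from those of all windows. Among the 7 windows found for 5 of the 7 genes called in Rspo1 against LGR5-ECD, the single match was a TCF/LEF core at the downstream start of Mgat4a. A match or its absence in these letters describes the sequence and no binding.

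Over all tested members, Rspo1 against LGR5-ECD gave 7 calls among 48 members (14.6%), where 8.45% of all genes tested were called. Of these, 2 were higher in Rspo1 (St3gal3 and B4galt6), where 4.92% of all genes were called higher, and 5 were lower (St3gal4, Gcnt4, Mgat4a, Gcnt3 and B3gnt7), where 3.54% were called lower. The groups did not overlap for 17 of the 48 (35.4%, against 31% of all genes), with Rspo1 above for 7 (18.9% of all genes) and below for 10 (12.1% of all genes). The median log2 change of the 48 was -0.08, against 0.08 over all genes. With median-ratio scaling of the libraries these medians were -0.12 and 0.02, and with quantile normalization -0.17 and -0.0015. By class, 1 of 4 sialyltransferases rose and 1 fell (median 1.07). None of 4 fucosyltransferases was called by limma, 1 having an unadjusted p under 0.05 (median -0.19). Among 14 mucin-type enzymes 2 fell and none rose (median -0.29), among 6 N-glycan branching enzymes 1 fell (median -0.01), and among 20 chain extension enzymes 1 rose and 1 fell (median 0.05, which was -0.01 and -0.07 under these scalings).

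**Figure D3:**
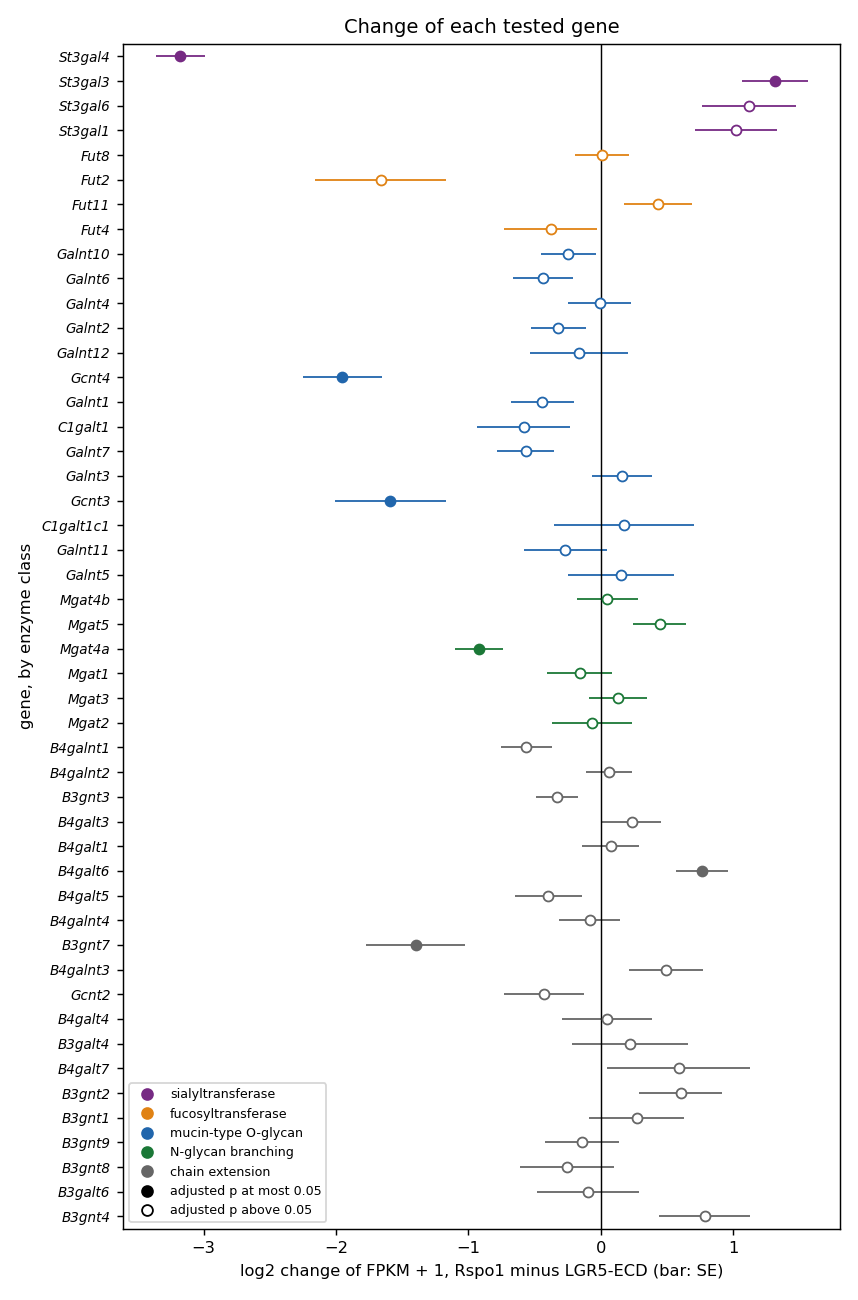
Points are the log2 change of FPKM + 1, Rspo1 minus LGR5-ECD, for the 48 tested members by enzyme class, with the moderated SE as bars. Filled points have an adjusted p of at most 0.05. St3gal4 lies farthest to the left at -3.18 and St3gal3 farthest to the right at 1.32.

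Among the mucin-type enzymes, the branching enzymes differed most. Gcnt4, a core 2 enzyme, had 3.48, 2.89 and 4.17 FPKM in Rspo1, 11.8, 14.4 and 25.5 in LGR5-ECD and 6.56 and 4.09 in the control (log2 change of -1.95, SE 0.30, adjusted p = 0.00317, Rspo1 against LGR5-ECD). Gcnt3, which makes core 2 and core 4 branches and is known from mucus-secreting tissue, had 1.79, 3.28 and 1.12 FPKM in Rspo1, 3.84, 7.86 and 15.1 in LGR5-ECD and 1.49 and 1.88 in the control (log2 change of -1.59, SE 0.42, adjusted p = 0.0422). Both were high in all LGR5-ECD libraries, with no overlap with Rspo1 or the control. Within LGR5-ECD, both were lowest in replicate 1 and highest in replicate 3, as was the summed level of the 9 goblet markers. In Rspo1 neither gene had the order of these sums. In the control, the sums (312 and 934) and Gcnt3 were higher in control 2, and Gcnt4 was lower. Control 2 had a higher sum than LGR5-ECD replicate 1 (807), and lower levels of both genes. The part of goblet cells in the result was not tested. The Gcnt4 call held without each library, and the Gcnt3 call held without LGR5-ECD replicate 1 and was lost without each of the other 7 (adjusted p up to 0.164). It was also lost with a pseudocount of 0.1, with no filter, with a filter at 5 FPKM and in the fit on those groups alone. Against the control, neither passed in LGR5-ECD (adjusted p = 0.0779 for Gcnt4 and 0.125 for Gcnt3), though Gcnt3 was called without LGR5-ECD replicate 1. Muc2, the main gut mucin and a goblet marker, fell in Rspo1 relative to LGR5-ECD (log2 change of -2.47, SE 0.45, adjusted p = 0.00766).

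C1galt1, the core 1 synthase, had 5.28, 8.69 and 6.61 FPKM in Rspo1, 8, 8.95 and 16.4 in LGR5-ECD and 5.21 and 1.8 in the control, and did not pass in any comparison (adjusted p = 0.365 for Rspo1 against LGR5-ECD, 0.282 for Rspo1 against the control and 0.118 for LGR5-ECD against the control). Its chaperone gene C1galt1c1 (Cosmc) had 2.75, 2.86 and 2.12 FPKM in Rspo1, 3.44, 4.87 and 0.21 in LGR5-ECD and 2.04 and 0.41 in the control, with the lowest value in the LGR5-ECD library of low detection. B3gnt6, the core 3 synthase, had 0.087, 0 and 0 FPKM in Rspo1, 0, 0.307 and 0 in LGR5-ECD and 0 and 0.191 in the control. Gcnt1, another core 2 enzyme, had 0.16, 0 and 0 FPKM in Rspo1, 0.0716, 0.172 and 1.26 in LGR5-ECD and 0.227 and 0.681 in the control. Core 1 and Gcnt-type branching transcripts were thus measured at 1 FPKM or more, and the core 3 transcript was not.

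Of the 16 Galnt genes, which start O-glycans, 5 were listed at 0 in every library (Galnt9, Galnt13, Galnt14, Galnt15 and Galnt18), Galnt16 did not exceed 0.169 FPKM, and 10 were tested. Galnt10 was the highest, at 22.4, 25.8 and 22.5 FPKM in Rspo1, 31.4, 33.5 and 21 in LGR5-ECD and 23.8 and 26.9 in the control, and the groups overlapped. Galnt6 followed at 15.5 ± 3.03 FPKM in Rspo1, 21.3 ± 4.17 in LGR5-ECD and 13.3 ± 2.51 in the control (SD, n = 3, 3 and 2). None of the 10 was called by limma in Rspo1 against LGR5-ECD, where Galnt7 had the smallest p (6.04, 7.68 and 5.77 FPKM in Rspo1, 9.25, 9.7 and 11.3 in LGR5-ECD and 5.36 and 4.26 in the control; log2 change of -0.57, SE 0.21, adjusted p = 0.136). Galnt12 stood at 8.69, 11.8 and 8.63 FPKM in Rspo1, 6.52, 8.62 and 22.2 in LGR5-ECD and 4.8 and 6.81 in the control, with LGR5-ECD replicate 3 above all others. Galnt3 had 6.4, 8.19 and 8.9 FPKM in Rspo1, 5.9, 8.63 and 6.32 in LGR5-ECD and 4.62 and 4.68 in the control (adjusted p = 0.738, Rspo1 against LGR5-ECD). Galnt4 had 11.5, 13.1 and 13.1 FPKM in Rspo1, 11.6, 11 and 15.7 in LGR5-ECD and 10.2 and 5.74 in the control (adjusted p = 0.989). Galnt1, Galnt2, Galnt5 and Galnt11 ranged from 5.53 to 11.2, 6.89 to 13.2, 0 to 2.09 and 1.18 to 3.57 FPKM over the 8 libraries.

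No fucosyltransferase passed in the main fit over all 8 libraries. Fut2, the secretor enzyme that adds alpha-1,2-linked fucose in the gut, had 0.952, 4.47 and 4.38 FPKM in Rspo1, 5.06, 14.1 and 18.8 in LGR5-ECD and 5.42 and 9.25 in the control. All Rspo1 values lay below those of both other groups. The difference between Rspo1 and LGR5-ECD did not pass in that fit (log2 change of -1.66, SE 0.50, adjusted p = 0.0667). It was called without LGR5-ECD replicate 1, and with a replicate block over the 6 treated or over all 8 libraries. As with Gcnt3 and Gcnt4, the LGR5-ECD values of Fut2 were lowest in replicate 1 and highest in replicate 3. Fut8, which adds the core fucose of N-glycans, had 16.6, 17.2 and 16.1 FPKM in Rspo1, 19.2, 18.3 and 12.9 in LGR5-ECD and 11.7 and 9.31 in the control (log2 change 0.01, adjusted p = 0.987, Rspo1 against LGR5-ECD). Fut4, an alpha-1,3 enzyme of Lewis structures, had 1.01, 2.04 and 1.6 FPKM in Rspo1, 3.77, 2.67 and 0.991 in LGR5-ECD and 1.26 and 2.1 in the control, and Fut11 ranged from 2.01 to 4.68 FPKM. Fut1 reached 2.02 FPKM in LGR5-ECD replicate 3 and at most 0.558 FPKM elsewhere, Fut10 and Fut7 did not exceed 0.369 and 0.305 FPKM, and Fut9 and Fut4-ps1 were listed at 0 throughout. Fut1 and Fut2 are close copies, and the handling of reads shared between them is not stated.

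**Figure D4:**
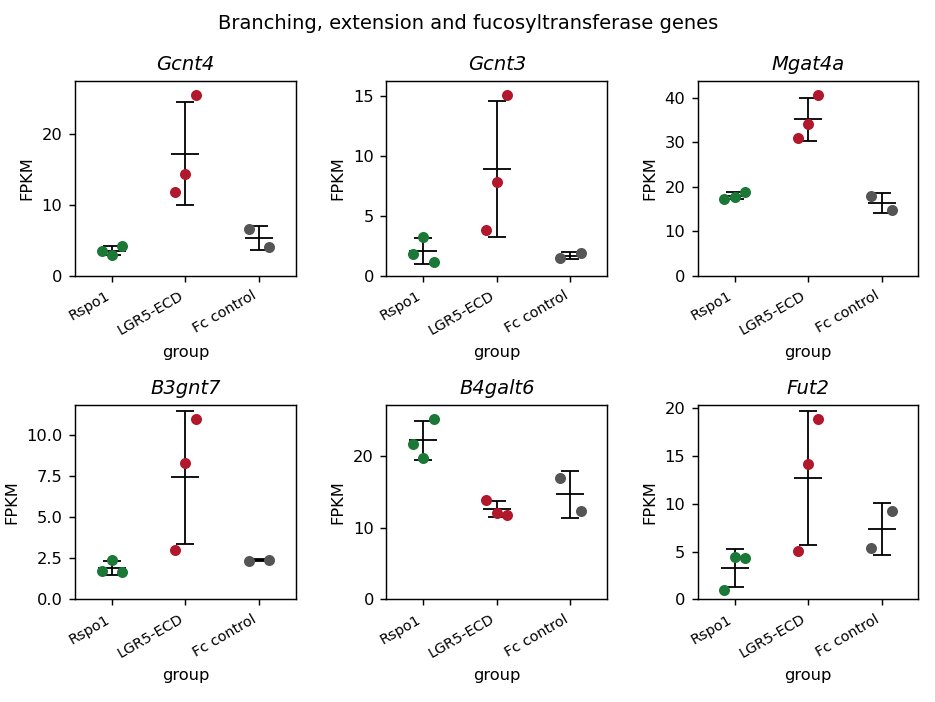
Points are FPKM in single libraries of Gcnt4, Gcnt3, Mgat4a, B3gnt7, B4galt6 and Fut2 by group (3 Rspo1, 3 LGR5-ECD, 2 Fc control), with the mean and SD as bars. In Gcnt4, Gcnt3, Mgat4a and B3gnt7 every LGR5-ECD library lies above every other library, and B4galt6 is highest in Rspo1, at 19.6 to 25.1 FPKM.

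Among the N-glycan branching enzymes, Mgat4a adds a branch on one mannose arm of the N-glycan core. It had 17.3, 17.8 and 18.9 FPKM in Rspo1, 30.9, 34 and 40.5 in LGR5-ECD and 18 and 14.7 in the control. The LGR5-ECD libraries were all high and did not overlap with the others. Mgat4a was lower in Rspo1 than in LGR5-ECD (log2 change of -0.92, SE 0.18, adjusted p = 0.0117) and higher in LGR5-ECD than in the control (log2 change of 1.06, SE 0.20, adjusted p = 0.049). The first call was lost without Rspo1 replicate 2 (adjusted p = 0.0604), and the second without each library except control 1 (adjusted p up to 0.205), with a pseudocount of 0.1, with no filter, with quantile normalization and in the fit on those groups alone. The part of the enterocyte markers, whose sums were also highest in LGR5-ECD, was not tested. Its paralog Mgat4b, which makes the same branch, was the most abundant member of the class, with 66.6, 60.6 and 53.9 FPKM in Rspo1, 57.2, 77.7 and 44.2 in LGR5-ECD and 56.4 and 41.4 in the control, and the groups overlapped (log2 change of 0.05, SE 0.23, adjusted p = 0.93, Rspo1 against LGR5-ECD). Mgat5, which adds the branch on the other arm, had 26.9, 33 and 27.9 FPKM in Rspo1, 23.8, 22.1 and 17.9 in LGR5-ECD and 27.2 and 19.3 in the control (adjusted p = 0.217, Rspo1 against LGR5-ECD). Mgat3, which adds the bisecting sugar, had 6.48, 7.88 and 8.19 FPKM in Rspo1, 5.3, 7.66 and 7.54 in LGR5-ECD and 6.71 and 6.36 in the control (adjusted p = 0.777). Mgat1 and Mgat2, which open the branching series, ranged from 4.54 to 8.75 and from 2.75 to 7.02 FPKM (adjusted p = 0.758 and 0.927). Mgat4c and Mgat5b did not exceed 0.567 and 0.0191 FPKM, and Mgat4d and Mgat4e were listed at 0.

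Of the 26 chain extension enzymes, 20 were tested. B3gnt7, which lengthens poly-N-acetyllactosamine chains, had 1.72, 2.38 and 1.65 FPKM in Rspo1, 3, 8.34 and 11 in LGR5-ECD and 2.36 and 2.42 in the control, and fell in Rspo1 relative to LGR5-ECD (log2 change of -1.40, SE 0.37, adjusted p = 0.0443). Within LGR5-ECD, B3gnt7 was also lowest in replicate 1 and highest in replicate 3, as were the goblet marker sums. In Rspo1 its order differed from that of the sums, and within the control both were higher in control 2. Control 2 had a higher sum than LGR5-ECD replicate 1 (934 and 807) and a lower level of B3gnt7. The part of goblet cells was not tested here either. The call held without LGR5-ECD replicate 1 and was lost without each of the other 7 libraries (adjusted p up to 0.146), and was lost under the same settings as that of Gcnt3. Without LGR5-ECD replicate 1, B3gnt7 was also called in LGR5-ECD against the control. B4galt6, a lactosylceramide synthase, had 21.7, 19.6 and 25.1 FPKM in Rspo1, 13.8, 12.1 and 11.8 in LGR5-ECD and 16.9 and 12.3 in the control, and rose in Rspo1 relative to LGR5-ECD (log2 change of 0.76, SE 0.20, adjusted p = 0.0376). That call was lost without each of the 6 treated libraries (adjusted p up to 0.162). B4galt5, the other gene of this activity, had 8.68, 9.9 and 10.5 FPKM in Rspo1, 12.5, 17.7 and 9.97 in LGR5-ECD and 17.7 and 10.9 in the control, with Rspo1 values that overlapped only with LGR5-ECD replicate 3 (log2 change of -0.40, SE 0.25, adjusted p = 0.392). B4galnt1 was lower in each Rspo1 library than in each library of the other groups, and this did not pass (log2 change of -0.56, SE 0.19, adjusted p = 0.108, Rspo1 against LGR5-ECD), but did with median-ratio scaling or quantile normalization. B4galnt2, with 184, 162 and 155 FPKM in Rspo1, 157, 154 and 168 in LGR5-ECD and 177 and 145 in the control, had a log2 change of 0.06 (SE 0.17) in the same comparison. B3gnt3 was above 90 FPKM in the 3 LGR5-ECD libraries and at most 75.8 FPKM in the others (log2 change of -0.33, SE 0.16, adjusted p = 0.246).

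B3gnt2, a main enzyme of poly-N-acetyllactosamine, had 3.76, 3.49 and 4.54 FPKM in Rspo1, 1.29, 4.04 and 1.93 in LGR5-ECD and 1.04 and 0.831 in the control, and both control values lay below all others (log2 change of 1.34, SE 0.35, adjusted p = 0.0902, Rspo1 against the control). The symbol B3gnt1, at 0.0745 to 3.34 FPKM, is given by RefSeq as an older name of both B3gnt2 and B4gat1. B3gnt2 is also listed separately with other values, which points to B4gat1, though the name alone does not settle the gene. B4galt1, B4galt3, B4galt4 and B4galt7, galactosyltransferases of N-acetyllactosamine and, for B4galt7, of the proteoglycan linker, ranged from 10.6 to 23.7, 16.3 to 28.5, 1.73 to 4.86 and 0.197 to 5.45 FPKM, with adjusted p of 0.876, 0.592, 0.96 and 0.575 in Rspo1 against LGR5-ECD. The other tested members, B4galnt3, B4galnt4, B3galt4, B3galt6, B3gnt4, B3gnt8, B3gnt9 and Gcnt2, lay between 0 and 7.21 FPKM, and their adjusted p ran from 0.207 for B3gnt4 to 0.915 for B3galt6. B3galt5, which makes type 1 chains, had 0.0981, 0 and 0 FPKM in Rspo1, 0.341, 0 and 0.306 in LGR5-ECD and 0 and 0 in the control. B3galt2, B3gnt5, B4galt2 and Gcnt7 did not exceed 0.301, 0.383, 0.204 and 0.688 FPKM, and B3galt1 was listed at 0.

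Against the control, few members passed in either treated group. Both comparisons share the 2 control libraries, so their values are given side by side without a test of likeness. In Rspo1 against the control 1 of 48 members was called (2.08%, against 1.25% of all genes tested), St3gal4, which was lower (0.672% of all genes were called higher and 0.576% lower), and 12 had an unadjusted p under 0.05. In LGR5-ECD against the control 2 were called (4.17%, against 0.716% of all genes), St3gal4 and Mgat4a, which were higher (0.445% of all genes were called higher and 0.271% lower), and 15 had an unadjusted p under 0.05. The groups did not overlap for 22 members in Rspo1 against the control, where 38.2% of all genes did not overlap (15 above, against 26.2% of all genes, and 7 below, against 12%), and for 23 in LGR5-ECD against the control, where the share was 30.9% (19 above, against 18.2%, and 4 below, against 12.7%). For the 14 mucin-type enzymes the median log2 change was 0.33 in Rspo1 and 0.64 in LGR5-ECD, while the medians over all genes tested were 0.16 and 0.05. In Rspo1 the mucin-type median was 0.17 with median-ratio scaling and 0.20 with quantile normalization, against 0.01 over all genes with either. In LGR5-ECD all 14 had a positive log2 change as deposited and 13 under either other scaling of the libraries, none was called by limma, and 7 had an unadjusted p under 0.05. In Rspo1 12 of the 14 were positive as deposited and 11 under either scaling, none was called, and 3 had an unadjusted p under 0.05. The share of all genes tested with an unadjusted p under 0.05 was not counted. The counts of members at that level are therefore not a result about these genes.

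**Figure D5:**
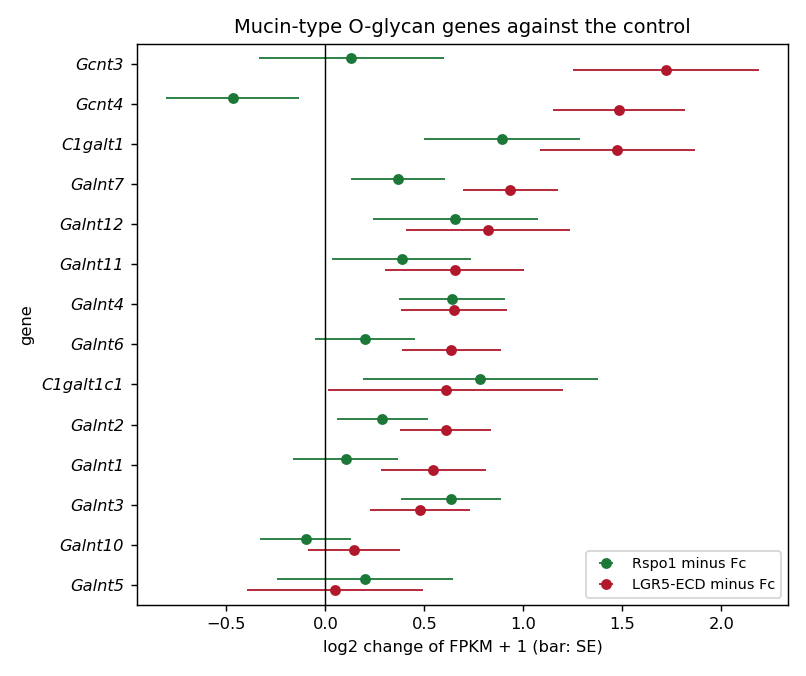
Points are the log2 change of FPKM + 1 of the 14 tested mucin-type O-glycan genes in Rspo1 (green) and in LGR5-ECD (red) against the same 2 Fc control libraries, with the moderated SE as bars. The LGR5-ECD points run from 0.05 for Galnt5 to 1.72 for Gcnt3, and no point passed an adjusted p of 0.05.

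Other genes of the pathway were counted in 6 lists. Each list gave 1 or 2 calls in Rspo1 against LGR5-ECD, where 8.45% of all genes tested were called, and none was tested as a set. The share of all genes called was 1.25% in Rspo1 against the control and 0.716% in LGR5-ECD against the control. Among 15 tested glycosyltransferases and terminal modifiers, in which B3gnt1 was counted again, 1 rose and 1 fell in Rspo1 relative to LGR5-ECD. St6galnac2, which adds alpha-2,6-linked sialic acid to the GalNAc of O-glycans, had 149, 131 and 159.7 FPKM in Rspo1, 77.6, 73.5 and 74.3 in LGR5-ECD and 97.4 and 87.5 in the control (log2 change of 0.95, SE 0.16, adjusted p = 0.00622). It was thus above every St3gal gene in each Rspo1 and each control library. Gal3st2, a sulfotransferase that acts on galactose, had 3.35, 3.92 and 2.41 FPKM in Rspo1, 14.5, 10.3 and 5.9 in LGR5-ECD and 4.96 and 10.1 in the control (log2 change of -1.35, SE 0.34, adjusted p = 0.0353), a call lost without each Rspo1 library and without LGR5-ECD replicate 1 or 2 and with no filter (adjusted p up to 0.139). Of 29 nucleotide sugar genes 2 fell, Mpi (log2 change of -0.97, SE 0.24, adjusted p = 0.0311) and Gnpda1 (log2 change of -0.94, SE 0.25, adjusted p = 0.0422), enzymes of the mannose and glucosamine phosphate routes. Both calls were lost without each Rspo1 library and without LGR5-ECD replicate 2, that of Mpi also without replicate 3 and that of Gnpda1 without replicate 1 (adjusted p up to 0.12 and 0.154). With no filter both were lost, and with a pseudocount of 0.1 that of Gnpda1.

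Of 13 transporter genes of the Slc35 family, 1 fell in Rspo1 relative to LGR5-ECD. This was Slc35b1, which has been described as a carrier of UDP-galactose and of ATP in the endoplasmic reticulum, with 11.6, 8.25 and 8.39 FPKM in Rspo1, 20.3, 24.3 and 27.7 in LGR5-ECD and 9.54 and 10.1 in the control (log2 change of -1.27, SE 0.21, adjusted p = 0.00431). Among 29 genes of early N-glycan trimming and Golgi structure, 1 rose in Rspo1 relative to LGR5-ECD. Man2a2, a Golgi mannosidase that prepares N-glycans for branching, had 6.61, 6.19 and 5.74 FPKM in Rspo1, 1.69, 2.29 and 2.19 in LGR5-ECD and 7.06 and 6.68 in the control (log2 change of 1.24, SE 0.22, adjusted p = 0.00676). Its paralog Man2a1 rose in Rspo1 relative to the control, at 23.1, 27.5 and 24.7 FPKM in Rspo1 against 13.5 and 8.83 in the control (log2 change of 1.12, SE 0.23, adjusted p = 0.0464), a call lost without each Rspo1 library, without LGR5-ECD replicate 1 or 2 and without control 2, with no filter and with a pseudocount of 0.1 (adjusted p up to 0.291). Among 8 tested sialidase and other glycosidase genes the sialidase gene Neu2 rose in Rspo1 relative to LGR5-ECD (3.69, 5.68 and 3.99 FPKM in Rspo1, 0.502, 1.53 and 0 in LGR5-ECD and 2.88 and 1.85 in the control; log2 change of 1.79, SE 0.35, adjusted p = 0.0121), a call lost without Rspo1 replicate 2 (adjusted p = 0.0662) and with a pseudocount of 0.1 (log2 change of 3.28, adjusted p = 0.0536). Of 10 tested mucin and carrier protein genes 1 fell, Muc2. In LGR5-ECD against the control, Slc35b1 rose (log2 change of 1.21, SE 0.23, adjusted p = 0.049) and Man2a2 fell (log2 change of -1.37, SE 0.24, adjusted p = 0.0442), and no gene of the other 4 lists passed. Both were lost without each Rspo1 library, LGR5-ECD replicate 2 or either control, that of Slc35b1 also without LGR5-ECD replicate 3 and that of Man2a2 without LGR5-ECD replicate 1 (adjusted p up to 0.183 and 0.193). Both were also lost with a pseudocount of 0.1, with no filter and in the fit on those groups alone, and that of Slc35b1 under either scaling.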

How the data were processed

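The authors deposited 1 table of FPKM, with 24510 rows named by symbol and 8 libraries. Build mm9 and the tools Cufflinks, DESeq2, HTSeq and TopHat are named per the submitters' processing notes, with no version, role, annotation or strand setting. Without read totals no count test or counting interval was possible.

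Of the rows, 27 with a date for a symbol were left out, 391 identical repeats were dropped and 89 symbols on differing rows were summed, which left 23969; no member was on several rows. Genes with at least 1 FPKM in at least 2 libraries, 11454, were fitted on log2(FPKM + 1) with limma 3.58.1 in R 4.3.3 (group means, all 8 libraries, eBayes with trend, two-sided, Benjamini-Hochberg). SE is the moderated standard error. P-values set each group difference against the spread between these samples, moderated over the genes. The steps were tested on simulated data. Figures were made with Python 3.11.15 and matplotlib 3.10.9. Promoter windows came from RefSeq.

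The members, classes and lists were chosen with earlier results of these data known. Values in every library were given for members called in any comparison, the highest of each class, a list of key members and others chosen after their values were seen (B4galt5, B3gnt2, Mgat5, St3gal1); of each pathway list up to 4 called genes per comparison were named, with Lgr5 and Krt20. The 2 GFP-negative samples were not analysed here. The alternatives were another pseudocount, filters, scalings, fits on 2 groups, the highest row of a symbol, fits without 1 library and replicate blocks.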

Additional observations from a re-analysis of the deposited data

How the results depend on the processing

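Counts of called members depended on single libraries. In Rspo1 against LGR5-ECD, where 7 were called, the fits without 1 library gave 3 to 8, and the other alternatives 5 to 8. In Rspo1 against the control the count was 1, between 0 and 1 without 1 library (0 without Rspo1 replicate 2, with 6 members at an unadjusted p under 0.05 in limma), and 2 in the fit on those groups alone, where B3gnt2 was added. In LGR5-ECD against the control it was 2, and between 0 and 3 without 1 library (0 without LGR5-ECD replicate 2, with 13 members at an unadjusted p under 0.05 in limma). It was 1 with a pseudocount of 0.1 or quantile normalization, and 0 with no filter or in the fit on those groups alone (16 and 10 members at an unadjusted p under 0.05 in limma). The share of all genes at that unadjusted level was not counted in these fits either. With no filter the log2 changes stayed the same, while more genes were tested and the spread was estimated over them too. The cause of these shifts was not tested.

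St3gal4, St3gal3 and Gcnt4 kept their calls in Rspo1 against LGR5-ECD under all 17 alternatives, with log2 changes of -3.33 to -3.07, 1.05 to 1.47 and -2.20 to -1.65. B4galnt1 was also called there with either other scaling. Signs were followed gene by gene for the 7 members called in Rspo1 against LGR5-ECD. Reversed signs among these occurred only in comparisons where the gene was not called. In Rspo1 against the control they were Mgat4a (-0.029 with median-ratio scaling and -0.020 with quantile normalization), St3gal3 (-0.11 and -0.12, and -0.10 to 0.22 without 1 library) and Gcnt3 (-0.14 to 0.37 without 1 library). In LGR5-ECD against the control it was B4galt6 (-0.41 to 0.025 without 1 library). Signs of other members also changed with the scaling. In Rspo1 against the control 33 of the 48 tested members were positive as deposited, 26 with median-ratio scaling and 25 with quantile normalization. These counts were 33, 31 and 30 in LGR5-ECD against the control, and 22, 18 and 17 in Rspo1 against LGR5-ECD. Libraries share replicate numbers, those of the control being only the ends of its column names. The deviations of same-numbered libraries from their group means had correlations of -0.048 to 0.033, against -0.067 to 0.067 for other numbers. With 2 or 3 libraries in a group, the deviations within a group are tied to each other. These values therefore cannot settle whether the numbers pair libraries. With a replicate block over the 6 treated libraries, 5 members were called in Rspo1 against LGR5-ECD: St3gal4, St3gal3, Gcnt4, Mgat4a and Fut2, without B3gnt7, B4galt6 and Gcnt3 (adjusted p = 0.0716, 0.0661 and 0.0893). A replicate block over all 8 libraries, added after the data were seen, called 7 there (with Fut2 and without B4galt6), 1 in Rspo1 against the control (St3gal4) and 1 in LGR5-ECD against the control (St3gal4, without Mgat4a). The pathway genes, refitted after their values had been seen, changed no sign. In Rspo1 against LGR5-ECD, St6galnac2, Slc35b1, Man2a2 and Muc2 kept their calls under all 17 alternatives.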
